A study of Mus musculus with 12 samples.

Results

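The experiment asks whether the change between day 1 and day 3 of differentiation of mouse embryonic stem (ES) cells depends on the format of the culture. Its members are 8 of the 12 arrays of the series, 2 in each of 4 groups, which are embryoid body (EB) day 1, EB day 3, "Mono layer" (ML) day 1 and ML day 3. The value studied is a difference of 2 changes on the log2 scale, the EB change (day 3 minus day 1) minus the ML change, so a positive value means that the signal rose more, or fell less, in EBs. Of 17729 genes tested, 14718 had a probe well above background on both arrays of all 4 groups, and these are called measured genes. Folds are given for measured genes, and as lower bounds where only the groups that enter against the direction were dim.

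All cells were ES cells of strain 129, with no genotype or treatment named beside the culture format and the day. ES cells are cultured from the inner cell mass of the early embryo, an EB is an aggregate of ES cells that differentiates in suspension, and a monolayer differentiates attached to the dish. Each group holds an array labelled clone #1 and another labelled clone #2. The submitters' design note gives 2 independent experiments by different people at each time, and it is not stated what the clone labels stand for. The p-values therefore measure only the spread between the arrays fitted, which also include the undifferentiated and EB day 4 arrays. Those further arrays were scanned on other days and with other software versions than the arrays compared. The EB arrays lay on 1 slide and the ML arrays on another, with day 1 in positions 1 and 2 and day 3 in positions 3 and 4 of both, and all 8 were scanned on the same day with the same software version. Slide and format therefore cannot be told apart at a single day, while an additive slide or position effect cancels in the difference of changes. A signal is given as log2 relative to the 75th percentile of its array.

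During the first days of differentiation, ES cells leave pluripotency and pass through a state like the epiblast, and Nodal, Wnt and BMP signals then induce genes of the primitive streak, the embryonic structure from which mesoderm and definitive endoderm arise. Gata6 and Sox17 encode transcription factors of endoderm, Mesp2 encodes a factor of paraxial mesoderm segmentation, and Spink1 encodes a secreted inhibitor of trypsin (called Spink3 in older mouse work) that is expressed in embryonic gut and pancreas. MHC class I genes encode the cell surface molecules that present peptides to T cells; interferons raise them in most cells.

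The largest group of called genes with values consisted of MHC class I probes, whose genes are related in sequence, so the array's 60-base probes are shown first. Each of the 5 probes below comes from the array files, written 5′ to 3′, with the longest run shared with another probe of its pair or trio in capitals. Positions are the array annotation's, in mouse build mm9. H2-Q10 lies at chr17:35610210-35610269 on the plus strand and H2-Q5 at chr17:36246864-36247298 on the minus strand. H2-Q2 lies at chr17:35482113-35482172 and H2-D1 at chr17:35403132-35403191, both on the plus strand, and H2-T-ps at chr17:36246598-36246657 on the minus strand. By these positions the H2-Q5 probe lies beside that of H2-T-ps on the same strand, away from those of H2-Q2 and H2-Q10. H2-Q5 and H2-T-ps are counted apart below, but whether their probes read the same gene was not tested.
H2-Q10: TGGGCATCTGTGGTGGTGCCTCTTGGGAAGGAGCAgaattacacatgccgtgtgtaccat
H2-Q5: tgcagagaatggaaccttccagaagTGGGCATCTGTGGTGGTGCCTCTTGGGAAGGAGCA
H2-Q2: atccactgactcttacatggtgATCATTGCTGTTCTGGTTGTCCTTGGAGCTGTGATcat
H2-T-ps: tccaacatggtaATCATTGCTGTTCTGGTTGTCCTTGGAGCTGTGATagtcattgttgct
H2-D1: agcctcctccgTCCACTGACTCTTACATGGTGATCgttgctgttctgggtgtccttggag
The H2-Q10 and H2-Q5 probes share 35 bases, the H2-Q2 and H2-T-ps probes share another 35, and the H2-D1 probe shares 24 with that of H2-Q2. The probes of H2-T23 and H2-Q7 share 28 bases. Of the 17 class I probes examined, 7 shared a run of at least 20 bases with another, among them 6 of the 11 that were called. These probes may read one another's transcripts, so the values below belong to the class I group and not safely to a single member.

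Promoters are shown for 4 called genes, 2 higher and 2 lower in EBs. Each is the 250 bases before the annotated start in RefSeq (build GRCm38.p6), with every match to a searched motif in capitals. Cfc1 covers chr1:34535398-34535647 (plus strand), Mesp2 chr7:79810477-79810726 (plus), H2-K1 chr17:34000348-34000597 (minus) and H2-Q7 chr17:35438905-35439154 (plus).
Cfc1: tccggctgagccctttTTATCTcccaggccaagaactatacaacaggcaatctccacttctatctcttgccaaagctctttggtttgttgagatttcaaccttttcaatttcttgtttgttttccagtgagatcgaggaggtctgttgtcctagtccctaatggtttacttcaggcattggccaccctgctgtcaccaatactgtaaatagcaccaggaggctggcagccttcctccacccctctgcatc
Mesp2: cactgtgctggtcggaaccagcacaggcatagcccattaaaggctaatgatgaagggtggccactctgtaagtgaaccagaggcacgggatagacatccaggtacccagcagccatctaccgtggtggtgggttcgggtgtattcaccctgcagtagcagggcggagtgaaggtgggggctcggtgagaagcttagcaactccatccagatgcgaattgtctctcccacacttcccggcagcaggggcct
H2-K1: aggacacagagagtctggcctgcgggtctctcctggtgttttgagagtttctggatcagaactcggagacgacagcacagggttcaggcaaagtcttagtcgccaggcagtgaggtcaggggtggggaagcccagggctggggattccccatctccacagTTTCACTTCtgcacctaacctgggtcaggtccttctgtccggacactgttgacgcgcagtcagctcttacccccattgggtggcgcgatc
H2-Q7: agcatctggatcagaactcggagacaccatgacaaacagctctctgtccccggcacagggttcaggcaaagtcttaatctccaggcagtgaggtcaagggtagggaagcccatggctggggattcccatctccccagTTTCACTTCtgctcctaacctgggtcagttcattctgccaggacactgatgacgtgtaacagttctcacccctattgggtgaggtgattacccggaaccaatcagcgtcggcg
Both strands were searched for the GATA motif AGATAA and for GAANNGAAA, a form of the interferon response element chosen after the H2-K1 promoter had been read, and the 2 do not contain each other. Of 27025 promoters, 10.3% held the GATA motif and 6.34% the interferon form. The Cfc1 window holds the GATA motif from base -234 to -229, counted from the start, on the opposite strand, and the Mesp2 window holds neither. H2-K1 holds the interferon form from base -90 to -82 and H2-Q7 from base -113 to -105, both on the opposite strand and with the same letters. Of the 10 class I genes with a promoter in the table, 6 held it, and these promoters are copies that share descent.

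Day 3 against day 1 moved many genes in each format. In EBs 548 genes rose and 413 fell (3.09% and 2.33% of all genes tested, 5.42% in all), and in ML cultures 1023 rose and 1179 fell (5.77% and 6.65%, 12.4% in all), by limma with a Benjamini-Hochberg adjusted p under 0.05. The genes called in EBs and in ML cultures overlapped, with 216 rising in both (39.4% of the EB list and 21.1% of the ML list) and 298 falling in both (72.2% and 25.3%). Opposite calls were rare, with 6 genes that rose in EBs and fell in ML cultures and 0 the other way. Over the 14718 measured genes the 2 changes had a Pearson correlation of 0.627, which is a description across genes and not across replicates. Leaving out EB day 1 replicate 1 lowered the EB count to 211, EB day 1 replicate 2 to 104 and EB day 3 replicate 2 to 108. The ML count became 947 or 378 when ML day 1 replicate 1 or 2 was left out, and 879 or 4757 when ML day 3 replicate 1 or 2 was. More genes were called in ML cultures than in EBs over all 12 arrays, but fewer without ML day 1 replicate 2 (378 against 707 in EBs) and without ML day 3 replicate 1 (879 against 1377).

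**Figure D1:**
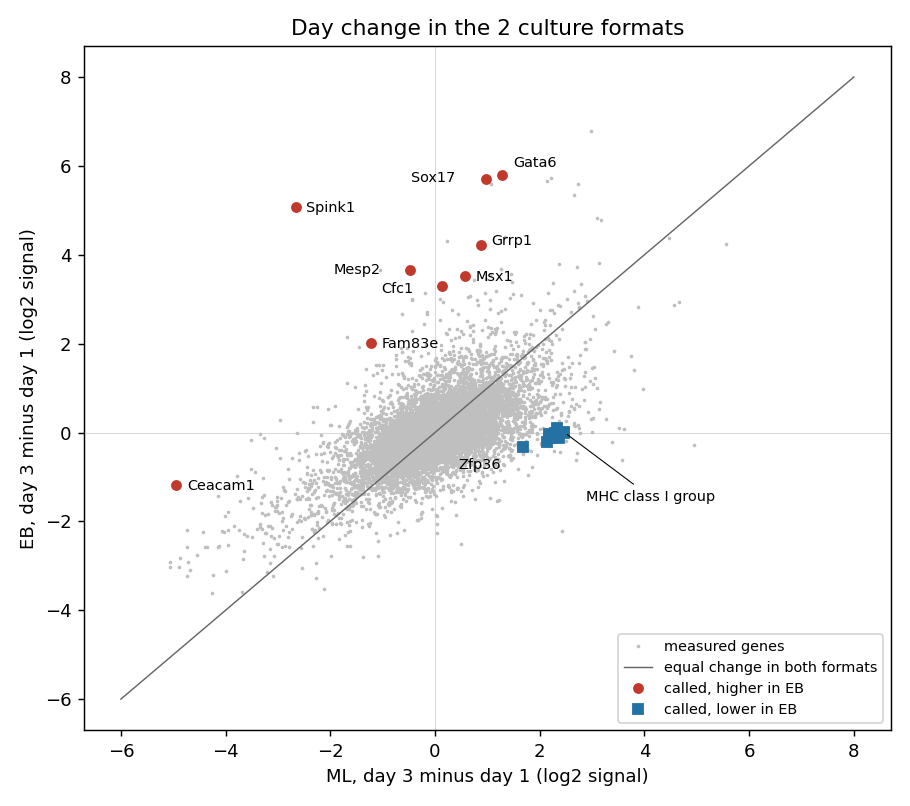
Day 3 minus day 1 in ML cultures (x axis) and in EBs (y axis), both in log2 signal, for the 14718 measured genes, with the line of equal change. Red circles are the 9 measured genes called higher in EBs and blue squares the 12 called lower; Spink1 lies at 5.07 in EBs and -2.66 in ML cultures, and the MHC class I group lies near 0 in EBs and above 2 in ML cultures.

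The difference of changes itself passed the test in 43 genes (0.243% of 17729), 27 higher in EBs (0.152%) and 16 lower (0.0902%). Of the 14718 measured genes 21 were called (0.143%), 9 higher (0.0611%) and 12 lower (0.0815%). Over all genes, 1804 (10.2%) had an unadjusted p under 0.05, 996 with a positive difference (5.62%) and 808 with a negative one (4.56%). Among the 27 higher genes, 18 rose in EBs without an ML call, 4 rose in EBs and fell in ML cultures, 4 fell in ML cultures without an EB call and 1 fell in both. Of these 27, 9 were measured, 4 had a bound and 14 were too dim in some group for a value. Most of the 14 were well above background on both arrays at EB day 3 alone among the 4 groups. For those genes the lack of an ML call says little. Of the 16 lower genes, 14 rose in ML cultures without an EB call and 2 fell in EBs without an ML call. Those 2, Mgp and Emcn, were well above background on no ML array, so their lack of an ML call says little. The median difference over all genes was 0.07, and 1440 measured genes (9.78%) differed by more than 2-fold between formats. The count depends on the arrays fitted and on the filter: with the 8 arrays fitted alone 9 genes were called, with no filter on dim probes 6, and with measured probes alone 22. It was 0 without either EB day 1 array or ML day 1 replicate 2 (limma, with 1302, 1268 and 1244 genes at an unadjusted p under 0.05) and 8 without either EB day 4 array. Leaving out ML day 1 replicate 1 gave 2 calls, EB day 3 replicate 2 gave 6, ML day 3 replicate 1 gave 14, EB day 3 replicate 1 gave 90 and ML day 3 replicate 2 gave 297.

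Spink1 had the largest difference of any called gene with a value. Its log2 signal was -1.35 and -1.14 at EB day 1, 3.48 and 4.18 at EB day 3, -0.30 and 0.79 at ML day 1, and -2.74 and -2.09 at ML day 3. Both EB day 3 arrays lay above all other arrays and both ML day 3 arrays below all others, so the gene moved in opposite directions. The EB change was 5.07 ± 0.53 (SE of the fit, n = 2 arrays a group; limma adjusted p = 0.00254) and the ML change -2.66 ± 0.53 (adjusted p = 0.0138). The difference of 7.74 ± 0.74 corresponds to 213-fold (limma, Benjamini-Hochberg adjusted p = 0.0129). It passed with the 8 arrays alone and in 9 of the 12 fits that left out 1 array, and was 6.72 with normexp background correction.

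Gata6 and Sox17, both activators of endoderm genes, rose strongly in EBs, with no ML call for either. Gata6 signal was -3.16 and -3.30 at EB day 1, 2.30 and 2.84 at EB day 3, -3.90 and -2.92 at ML day 1, and -1.43 and -2.83 at ML day 3. Sox17 signal was -2.19 and -2.80 at EB day 1, 2.76 and 3.68 at EB day 3, -3.75 and -3.68 at ML day 1, and -1.85 and -3.61 at ML day 3. For both genes the EB day 3 arrays stood apart from all 6 others, and ML day 3 replicate 1 lay above ML day 3 replicate 2, by more than 2-fold. The Gata6 difference was 4.52 ± 0.64 (23-fold; limma adjusted p = 0.0285) and the Sox17 difference 4.73 ± 0.73 (26.5-fold; adjusted p = 0.0442). With the 8 arrays alone neither passed, and among the 12 fits without 1 array Gata6 passed in 5 and Sox17 in 3. The other probes of Gata6 gave differences from 0.75 upward and the mean of its probes 3.01 (adjusted p = 0.0802), and both Sox17 probes gave close values, 4.71 and 4.73.

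Among the 18 endoderm regulators listed, 3 were called higher (Gata6, Sox17 and Mixl1), 0 lower and 15 not called, against 0.152% of all genes called higher. Gata6 and Sox17 were markers set beforehand, and the list was written with earlier results of these data known. The count is therefore a description and not a test of the list. The median difference of the 11 measured members was 1.08, beside 0.06 for all measured genes, with 10 positive and 1 negative. Mixl1, a homeobox gene of streak and endoderm precursors, was not well above background at EB day 1. It read -5.21 and -6.24 there, -0.020 and -0.48 at EB day 3, -3.57 and -4.03 at ML day 1, and -3.43 and -2.98 at ML day 3. Its difference was at least 18.2-fold (limma adjusted p = 0.0285), computed with the dim EB day 1 arrays raised to the detection limit of each array, its dimmest probe that passed the background flag. With normexp background correction the Mixl1 difference was 2.71 on the log2 scale and still called (adjusted p = 0.0196), a smaller fold than that bound. Hhex, a homeobox gene of anterior endoderm, had a difference of 2.26 ± 0.37 that missed the threshold (limma adjusted p = 0.0588), and Lhx1, a LIM homeobox gene of the node and anterior mesendoderm, 3.80 ± 0.80 (adjusted p = 0.138). Lhx1 was nevertheless called as risen in each format, by 6.79 in EBs and 2.99 in ML cultures.

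**Figure D2:**
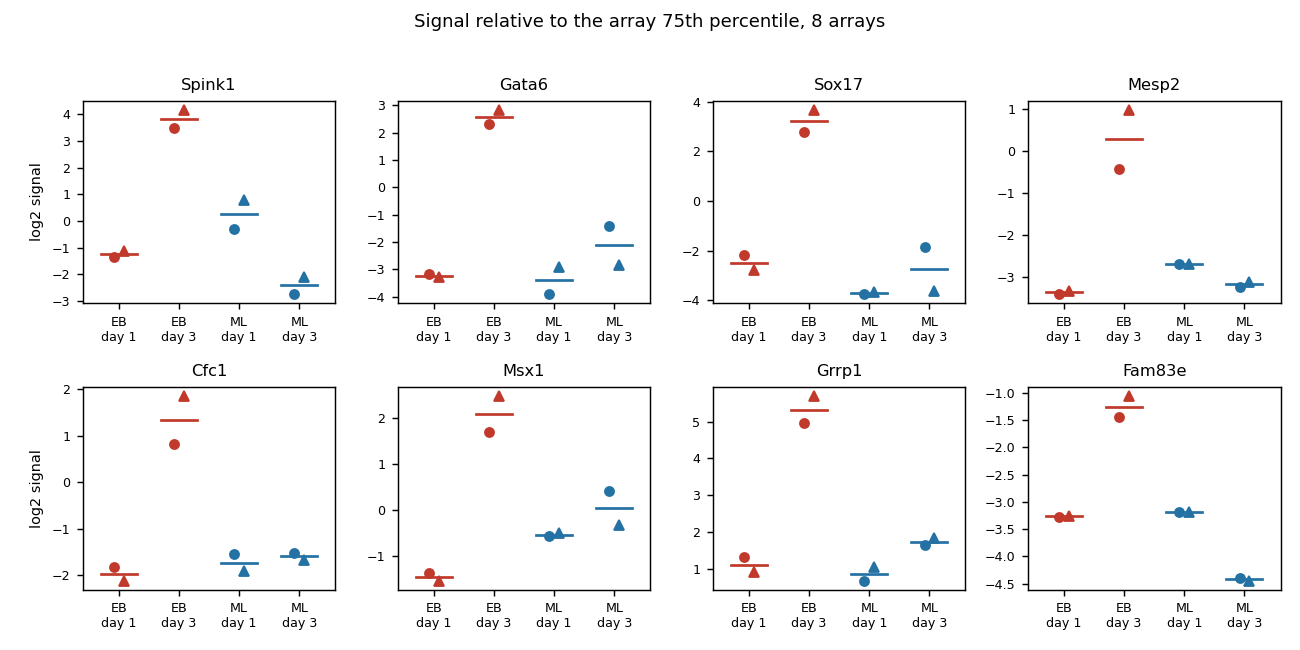
Log2 signal relative to the array's 75th percentile (y axes, scaled per gene) of 8 measured genes called higher in EBs, by group (x axes). Circles are replicate 1, triangles replicate 2 and lines group means; in all 8 genes both EB day 3 arrays lie above every ML array of either day.

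The difference varied widely in size among the streak and mesoderm genes. Of the 18 primitive streak transcription factors listed, Mixl1 and Mesp2 were called higher, 0 lower and 16 not called. The 13 measured members had a median difference of 1.72, with 11 positive and 2 negative. At an unadjusted p under 0.05 (limma), 9 of the 18 were positive and 0 negative (5.62% and 4.56% of all genes). Mesp2 was a marker set beforehand, Mixl1 is also in the endoderm list, and both lists were written with earlier results known. Mesp2 signal was -3.41 and -3.33 at EB day 1, -0.42 and 0.99 at EB day 3, -2.69 and -2.71 at ML day 1, and -3.26 and -3.12 at ML day 3. Only the EB day 3 arrays were raised, and the 6 others spanned less than 1 log2 unit. The Mesp2 difference was 4.14 ± 0.59 (17.7-fold; limma adjusted p = 0.0285), not called with the 8 arrays alone and called in 4 of 12 fits without 1 array. The Mesp2 difference was 2.87 with normexp background correction and still called (adjusted p = 0.0339).

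The general streak genes T and Eomes, singled out after their values were seen, rose in each format. T (Brachyury), the T-box factor of the streak and notochord, read -1.16 and -3.42 at EB day 1, 2.0 and 2.20 at EB day 3, -3.68 and -3.33 at ML day 1, and 1.08 and 0.84 at ML day 3. Its EB change was 4.39 and its ML change 4.46, a difference of -0.077 with a 95% interval from -2.09 to 1.94. Eomes, a T-box factor upstream of definitive endoderm and cardiac mesoderm, rose by 2.92 in EBs and 2.72 in ML cultures, a difference of 0.19 with a 95% interval from -1.68 to 2.07. Foxa2, a forkhead factor of endoderm and node, rose by 3.82 and 3.13, a difference of 0.69 with an interval from -1.49 to 2.87. Gsc, a homeobox gene of the anterior streak, rose by 4.78 and 3.18, a difference of 1.60 with an interval from -0.29 to 3.49. The intervals are about 4 log2 units wide, so differences of several fold could not be detected for these genes. In mean signal Foxa2, Eomes, T and Gsc were already higher in EBs at day 1, by 2.92, 2.17, 1.22 and 1.0. At day 3 the gaps were 3.61, 2.36, 1.14 and 2.60, and slide and format cannot be told apart at a single day. For each of these genes the 2 EB day 1 arrays lay more than 2-fold apart (2.47 and 0.54 for Foxa2). Mesp1 and Cer1, looked at along with them, were also called as risen in each format. Both were dim in a day 1 group and have no value. Their differences were positive and not called (limma adjusted p = 0.123 and 0.48).

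Cfc1 and Msx1 were the called members of the Nodal and BMP lists. Cfc1 encodes Cryptic, a co-receptor for Nodal signals. Its signal was -1.83 and -2.11 at EB day 1, 0.82 and 1.84 at EB day 3, -1.55 and -1.91 at ML day 1, and -1.51 and -1.67 at ML day 3. The ML arrays of both days overlapped and the EB day 3 arrays stood above all others, which gave a difference of 3.16 ± 0.44 (8.96-fold; limma adjusted p = 0.0285). Cfc1 was the only call among the 20 Nodal genes tested, with 0 called lower, and the 19 measured genes had a median of -0.43. Lefty2, a secreted Nodal inhibitor, was at -1.58 ± 0.52 (limma adjusted p = 0.323).

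Msx1, a homeobox gene that responds to BMP, read -1.37 and -1.54 at EB day 1, 1.68 and 2.46 at EB day 3, -0.58 and -0.51 at ML day 1, and 0.40 and -0.34 at ML day 3. Its difference was 2.95 ± 0.45 (7.74-fold; limma adjusted p = 0.0442), and it was called in 2 of 12 fits without 1 array. The related Msx2 had a difference of 3.06 ± 1.13 and the ligand Bmp7 one of 2.77 ± 0.92, neither called (limma adjusted p = 0.385 and 0.332). Of 24 BMP pathway genes 23 were not called, 8 had a positive difference at an unadjusted p under 0.05 (5.62% of all genes did) and 0 a negative one (4.56%). The 18 measured ones had a median of 0.88, with 13 positive and 5 negative. Of 30 Wnt pathway genes 0 were called, and 13 were positive and 0 negative at an unadjusted p under 0.05 (5.62% and 4.56% of all genes). The 21 measured ones had a median of 0.40, with 14 positive and 7 negative. In both lists the counts at an unadjusted p include genes that were dim in some group. Dkk1, a secreted Wnt inhibitor, had 1 of the largest uncalled differences, 4.52 ± 0.83 (limma adjusted p = 0.0841), with a rise of 5.59 in EBs.

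Fgf3, a secreted growth factor, came to 4.70 ± 0.81 (limma adjusted p = 0.0644), the largest positive difference of a measured gene that was not called. Its EB day 3 arrays read -1.58 and 0.52, and the other 6 lay between -4.78 and -3.59. Evx1, a homeobox gene of the posterior streak, had a difference of 3.50 ± 0.76 (limma adjusted p = 0.149), and Snai1, a repressor of epithelial genes, 2.69 ± 0.56 (adjusted p = 0.136). Of 21 cardiac and lateral mesoderm genes 0 were called, and 9 were positive with 0 negative at an unadjusted p under 0.05 (5.62% and 4.56% of all genes). Only 9 of those 21 were measured, with a median of 0.75, so most were dim in some group.

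Grrp1, Fam83e and Ceacam1 were the other measured genes called higher. Grrp1, a glycine and arginine rich protein, read 1.31 and 0.90 at EB day 1, 4.97 and 5.69 at EB day 3, 0.68 and 1.05 at ML day 1, and 1.63 and 1.84 at ML day 3. Both EB day 3 arrays stood above the 6 others, and its difference was 3.35 ± 0.47 (10.2-fold; limma adjusted p = 0.0285). Fam83e read -3.27 and -3.26 at EB day 1, -1.44 and -1.06 at EB day 3, -3.19 and -3.19 at ML day 1, and -4.40 and -4.44 at ML day 3. The 2 arrays of each group lay close together, and the difference was 3.25 ± 0.33 (9.48-fold; limma adjusted p = 0.0129). With normexp background correction it was 1.89 and still called (adjusted p = 0.0196).

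Ceacam1, an immunoglobulin family adhesion receptor, fell in ML cultures by more than it did in EBs. It read 1.30 and 1.22 at EB day 1, 0.086 and 0.073 at EB day 3, 0.68 and 0.28 at ML day 1, and -4.97 and -3.96 at ML day 3. The difference of 3.76 ± 0.53 (13.6-fold; limma adjusted p = 0.0285) rests on 1 of 3 probes. The 2 dimmer Ceacam1 probes gave -1.70 and -1.60, neither was well above background in all 4 groups, and the mean of the probes gave 0.15 (adjusted p = 0.964). Normexp background correction gave Ceacam1 a difference of 2.04, which was not called (adjusted p = 0.0827). The same direction was found over all probes of a gene in 8 of the 9 called genes that had more than 1.

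Beyond Mixl1, bounds could be given for 3 genes. Pga5, a pepsinogen gene, read -3.82 and -3.55 at EB day 1, -1.06 and -0.23 at EB day 3, -3.06 and -1.12 at ML day 1, and -6.01 and -5.19 at ML day 3, a difference of at least 75.5-fold (limma adjusted p = 0.0285). Treml4 differed by at least 5.67-fold and Ubxn11 by at least 4.94-fold, both also at a limma adjusted p of 0.0285. These bounds hold for the scanner's background subtraction only. With normexp background correction the log2 differences were 3.18 for Pga5 (adjusted p = 0.0259), 0.72 for Treml4 (adjusted p = 0.277) and 0.91 for Ubxn11 (adjusted p = 0.208), below the bounds, and the last pair was no longer called. The other 14 genes called higher were dim in a group that would have to be measured for a value.

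The 12 measured genes called lower were Zfp36 and 11 probes of the MHC class I region. The class I probes lay on chromosome 17 and showed 1 pattern, with no call in EBs and a rise in ML cultures. H2-K1, a classical heavy chain gene (chr17:34133055-34133114, mm9), read 4.22 and 3.80 at EB day 1, 3.99 and 3.92 at EB day 3, 2.77 and 2.82 at ML day 1, and 5.15 and 4.99 at ML day 3. The ML day 1 arrays lay below all EB arrays and the ML day 3 arrays above them. Its ML change was 2.28 ± 0.21 (limma adjusted p = 0.000765), its EB change -0.055 ± 0.21 (adjusted p = 0.916) and the difference -2.33 ± 0.29, or 5.03-fold (adjusted p = 0.0285). All 4 H2-K1 probes gave a difference between -2.41 and -2.0. Over the 12 fits that left out 1 array the H2-K1 difference ran from -2.54 to -2.12. The class I calls depended on the setting. With no filter on dim probes 0 genes of any kind were called lower, and with the 8 arrays alone 2 genes were.

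Across the 11 called probes, the EB change ranged from -0.22 to 0.10 and the ML change from 2.14 to 2.47, and the adjusted p of the difference from 0.0285 to 0.0442 (limma). At day 1 they were higher in EBs than in ML cultures by 0.82 to 1.22, and at day 3 lower by 1.12 to 1.47, so the order of the formats turned over between the days. The called probes were BQ951674, H2-T-ps, H2-D4, H2-Q6, H2-Q10, H2-K1, NAP000023-001, H2-Q2, H2-Q5, H2-T23 and H2-Q7, with differences from -2.49 (BQ951674) to -2.21 (H2-Q7). BQ951674 and NAP000023-001 keep the array's identifiers; the first is described there as of the H2-K region and the second carries no gene description. H2-Q and H2-T genes are nonclassical class I genes, of which H2-T23 encodes Qa-1.

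Class I genes that were not called, singled out after their values were seen, lay on the same side. All 15 class I symbols tested had a negative difference, from -3.52 to -0.75 with a median of -2.30, and 12 of them rose in ML cultures by limma (5.77% of all genes did) while 0 were called in EBs (5.42%). H2-D1, the other classical gene, had a difference of -1.96 ± 0.32 (limma adjusted p = 0.0611), and H2-Bl one of -3.52 ± 0.71 (adjusted p = 0.122), with ML day 3 arrays at 3.59 and 2.0. Smaller differences were found for H2-M3 at -1.49 and H2-T22 at -0.75.

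The genes that load class I molecules also had negative differences, and none was called. Tapbp (tapasin, of the peptide loading complex) rose in ML cultures by 1.36 and differed by -1.61 ± 0.40 (limma adjusted p = 0.18), and Psmb8 (an immunoproteasome subunit) rose by 2.06 and differed by -1.96 ± 0.62 (adjusted p = 0.302). B2m, the common light chain, rose in ML cultures by 1.30 (adjusted p = 0.0484) and differed by -0.85, with a 95% interval from -2.01 to 0.31. Tap1, the peptide transporter subunit, had a difference of -0.50 with an interval from -3.05 to 2.06. Irf1, a transcription factor of interferon signalling, had a difference of -1.41 (interval -2.38 to -0.44) and was not called (limma adjusted p = 0.286).

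**Figure D3:**
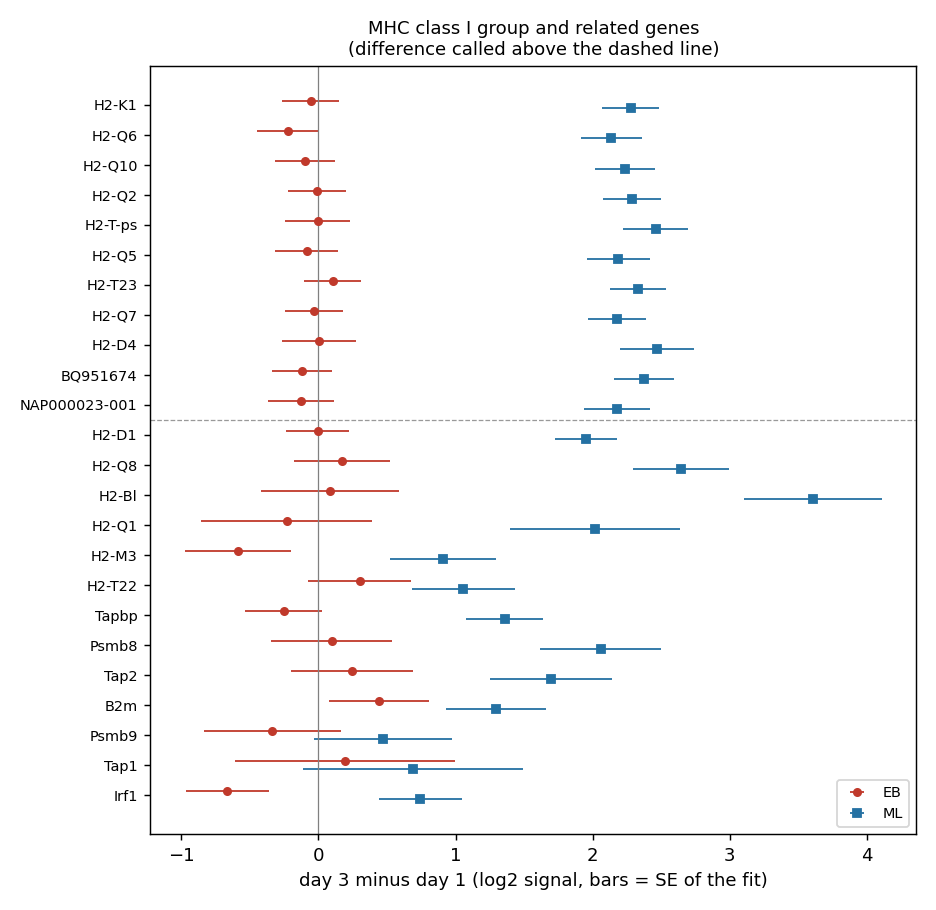
Day 3 minus day 1 in log2 signal (x axis, bars are SE of the fit) in EBs (red circles) and ML cultures (blue squares) for class I probes, genes of class I loading and Irf1 (y axis). The 11 probes above the dashed line were called in the difference, with EB changes from -0.22 to 0.10 and ML changes from 2.14 to 2.47; those below were not called.

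Zfp36 encodes tristetraprolin, which binds AU-rich elements and shortens the life of cytokine mRNAs. It read -0.90 and -0.68 at EB day 1, -1.13 and -1.09 at EB day 3, -1.03 and -1.06 at ML day 1, and 0.60 and 0.66 at ML day 3. Only the ML day 3 arrays stood apart, and the difference was -2.0 ± 0.26 (4-fold; limma adjusted p = 0.0285), with -1.80 from its second probe. The Zfp36 difference was -1.45 with normexp background correction and not called (adjusted p = 0.0675). Its relatives Zfp36l1 and Zfp36l2, chosen after their values were seen, had differences of 0.56 and 0.76 with no call. The other 4 genes called lower, AK044606, Mgp, Slc7a10 and Emcn, have no value because a group that enters with the direction was dim. Emcn was well above background on no array of the 4 groups. Mgp (matrix Gla protein) fell in EBs from -0.82 and -1.29 to -3.67 and -4.31.

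Genes of the integrated stress response, which ATF4 and CHOP drive when cells lack amino acids or accumulate unfolded protein, mostly had negative differences, with no call. Of 19 tested 0 were called, 12 had a negative difference at an unadjusted p under 0.05 (4.56% of all genes did) and 0 a positive one (5.62%), and 16 of the 17 measured were negative, with a median of -1.33. In ML cultures 11 of them rose (5.77% of all genes did), and in EBs 1 rose (3.09%) and 1 fell (2.33%). Chac1, a glutathione-degrading enzyme, read 1.27 and 1.61 at EB day 1, 2.92 and -0.59 at EB day 3, -0.031 and 0.13 at ML day 1, and 5.80 and 4.17 at ML day 3. Its 2 EB day 3 arrays were over 3 log2 units apart, and the difference of -5.21 ± 1.60 was not called (limma adjusted p = 0.289). Trib3, a pseudokinase target of CHOP, differed by -3.60 ± 0.92 (limma adjusted p = 0.198), Ddit3, which encodes CHOP, by -3.41 ± 1.30 (adjusted p = 0.401) and Atf3 by -3.0 ± 1.03 (adjusted p = 0.344).

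The size of the stress response difference depended on the ML day 3 array. All 17 measured genes of the list were higher on replicate 1 than on replicate 2, by a median of 1.04, against -0.12 over all genes. With replicate 1 as the only ML day 3 array the median of the list was -2.01 with 17 of 17 negative, and with replicate 2 it was -0.98 with 16 of 17 negative. Ddit3 read 3.0 on replicate 1 and -0.36 on replicate 2. Outside the list, Nupr1, a stress-induced nuclear protein, read 3.37 and -0.42 and had a difference of -4.64 ± 1.56 (limma adjusted p = 0.336). Stmn4, a neuronal stathmin and also not in the list, differed by -4.19 ± 0.75 (limma adjusted p = 0.0775), with ML day 3 arrays at 4.65 and 2.91.

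**Figure D4:**
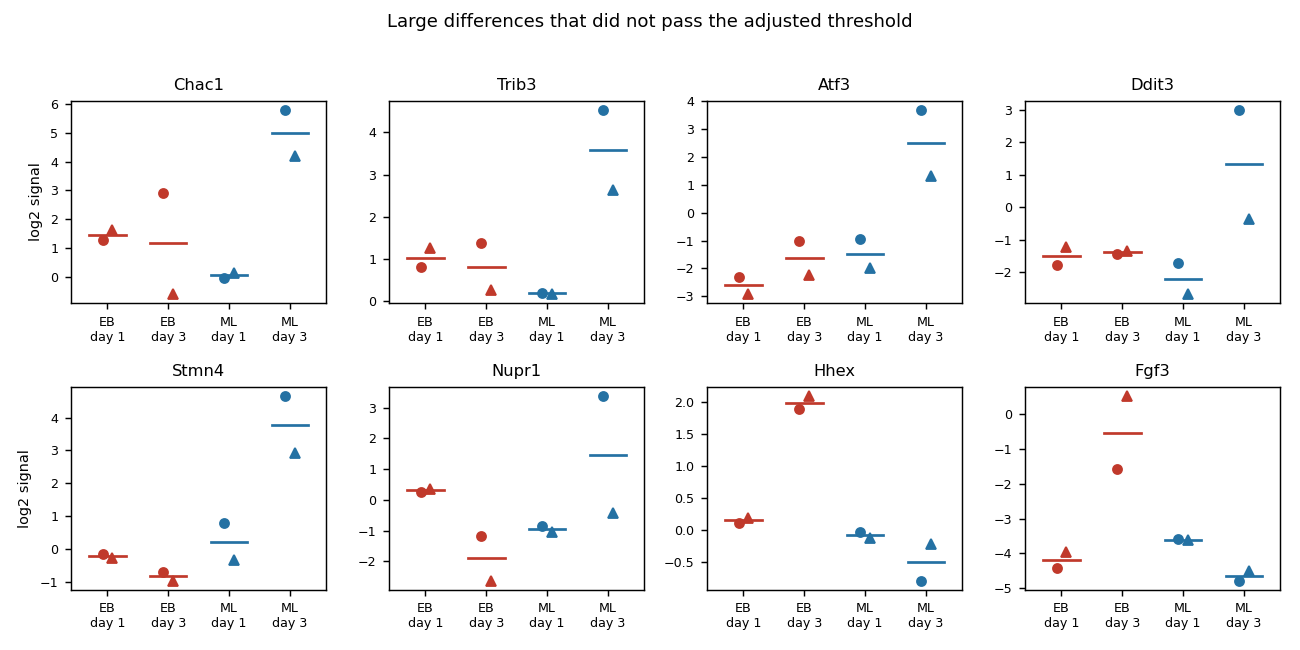
Log2 signal relative to the array's 75th percentile (y axes) by group (x axes) for 8 measured genes with large differences that were not called; symbols as circles for replicate 1, triangles for replicate 2 and lines for means. The ML day 3 arrays of Ddit3 (3.0 and -0.36) and Nupr1 (3.37 and -0.42) lie far apart, as do the EB day 3 arrays of Chac1 (2.92 and -0.59).

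The pluripotency lists had no call in the difference. Among 18 naive pluripotency genes, 7 fell in EBs (2.33% of all genes did) and 12 in ML cultures (6.65%), the measured median changes were -1.71 and -2.90, and the median difference was 0.82 with 13 of 17 positive. Fbxo15, an F-box gene of naive cells, fell in ML cultures by 3.30 and had a difference of 1.85 ± 0.56 (limma adjusted p = 0.282). Pou5f1, Sox2 and Nanog, which define ES cells, were well above background on all 8 arrays, at 1.37 or more, and had differences of -0.17, 0.15 and -0.41, none called. Lists with a measured median within 0.1 of 0 included core pluripotency factors (0.055), formative and primed epiblast genes (-0.0091), sterol and fatty acid synthesis genes (0.057) and visceral and parietal endoderm genes (0.077). Spink1 was the only call in that last list, and its measured neighbours there ran from Lrp2 at -2.75 ± 0.98 to Snai1 at 2.69. Glycolysis and hypoxia genes had a median of 0.75 with 23 of 27 positive and 0 called, and p53 target genes a median of -0.55 with 15 of 18 negative and 0 called.

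**Figure D5:**
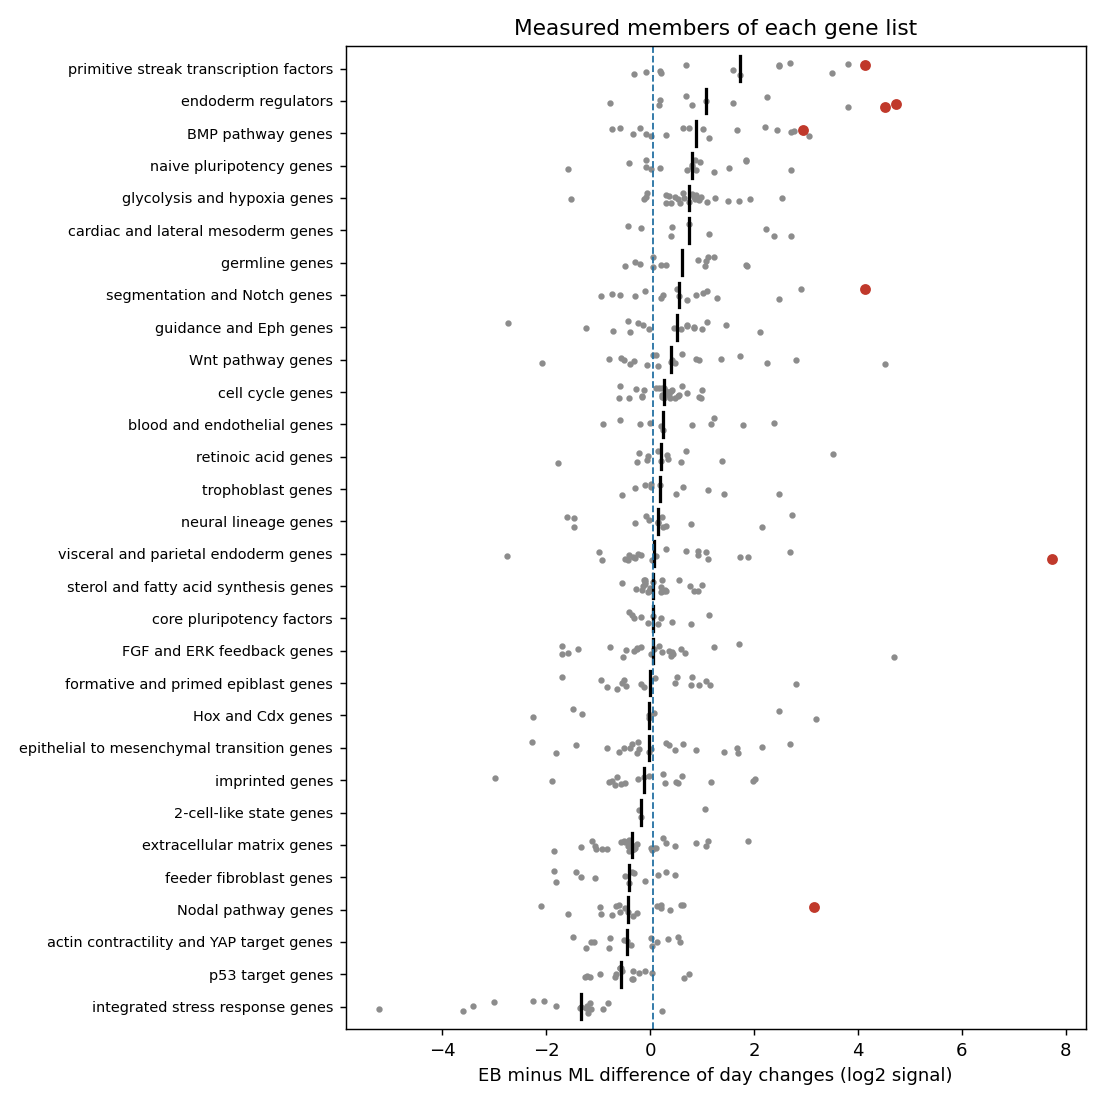
EB minus ML difference of day changes in log2 signal (x axis) for the measured members of the 30 gene lists (y axis), ordered by their median (black bar). Red points are called genes and the dashed line is the median of all measured genes, 0.06; primitive streak transcription factors lie highest (median 1.72) and integrated stress response genes lowest (median -1.33).

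The arrays of a group did not agree equally well. The 2 ML day 3 arrays had 3238 genes (18.3%) more than 2-fold apart, against 1464 (8.26%) at EB day 3, 736 (4.15%) at ML day 1 and 601 (3.39%) at EB day 1. The 10 spike-in control probes had a mean difference of 0.059 (range -0.18 to 0.18). Fibroblast feeder genes, of which 15 were tested and 1 (Mgp) was called lower, summed to 13.6 to 16.2 times the 75th percentile at EB day 1, 8.7 to 11 at EB day 3, 18.4 to 25.9 at ML day 1 and 18.0 to 19.9 at ML day 3. The 15 trophoblast genes tested had no call and sums of 37.3 to 44.2, 135 to 245, 62.5 to 174 and 164 to 339 in the same order. The keratin genes Krt8 and Krt18 made up most of each of these sums. Their mean log2 signals were 6.23 and 6.48 at EB day 3, and 6.48 and 7.10 at ML day 3. The sums therefore mainly follow these keratins and not the list as a whole. The part of feeder and trophoblast cells in the results was not tested. In these bulk samples fewer cells of a type and less RNA per cell cannot be told apart.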

How the data were processed

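Total RNA was made into Cy3-labelled cRNA and hybridised to 12 Agilent whole mouse genome arrays, 1 sample each, per the labels' protocols. The deposited scanner files hold background-subtracted spot intensity per the file headers (Feature Extraction 10.7.3.1 for the 8 arrays compared, against 9.5.1.1 in the submitters' processing notes), with per-spot flags as the other deposited values used, per the file headers. The deposited value table of the authors also holds intensity and served as an alternative.

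Outlier spots were left out, spots of a probe averaged, and log2 intensity set relative to each array's 75th percentile. Probes well above background on both arrays of at least 1 of 6 groups were kept (26176 of 41174), named through RefSeq accessions (24828 probes), symbols (6037) or synonyms (1810) or else by the file (8467), and reduced to the brightest probe per gene. On the 8 arrays 56.3% to 60.6% of 43379 spots were well above background and none was saturated, and the number of arrays limits the precision. limma 3.58.1 (R 4.3.3) was fitted to all 12 arrays as 6 group means (6 residual degrees of freedom), two-sided, with Benjamini-Hochberg adjusted p under 0.05 as the call. In simulated data of this comparison over 17729 genes, 26 of 50 genes changed by 2 log2 units were recovered and 45 of 50 changed by 5, with 8 unchanged genes called. A simulated run without any change gave 0 calls. The simulation gave each gene the same spread in all groups. In the real arrays 18.3% of genes were 2-fold apart at ML day 3 and 3.39% at EB day 1, so these rates need not hold for them.

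Where groups entering against the direction were dim, each of their arrays was raised to its dimmest probe that passed the background flag. Named genes were the markers Spink1, Gata6, Sox17 and Mesp2, the 15 largest measured differences each way (called genes first, then those at an unadjusted p under 0.05), up to 4 measured members of each of 30 lists, and up to 5 called genes with a bound. The members, lists and markers were chosen with earlier results of these data known. Alternatives covered normexp background (offset 50), quantile normalization, the authors' table, the filter, the mean of probes, the replicate block, the 8 arrays alone, a trended prior and each array left out. Clone numbers were not taken as pairs: deviations of same-numbered arrays correlated between groups at -0.15 to 0.23.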

Additional observations from a re-analysis of the deposited data

Results flagged for a closer look

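The change from day 1 to day 3 differed between EBs and ML cultures, by the test of that difference (limma, Benjamini-Hochberg adjusted), in 43 genes. The named ones are those with a value or a bound. In log2 signal, the measured genes higher in EBs differed by 7.74 for Spink1, 4.73 for Sox17, 4.52 for Gata6, 4.14 for Mesp2, 3.76 for Ceacam1, 3.35 for Grrp1, 3.25 for Fam83e, 3.16 for Cfc1 and 2.95 for Msx1. Those lower in EBs differed by -2.49 for BQ951674, -2.47 for H2-T-ps and for H2-D4, -2.36 for H2-Q6, -2.33 for H2-K1 and for H2-Q10, -2.30 for H2-Q2 and for NAP000023-001, -2.27 for H2-Q5, -2.23 for H2-T23, -2.21 for H2-Q7 and -2.0 for Zfp36. Lower bounds were 75.5-fold for Pga5, 18.2-fold for Mixl1, 5.67-fold for Treml4 and 4.94-fold for Ubxn11, with the scanner's background subtraction. With normexp background correction the same log2 differences were 3.18, 2.71, 0.72 and 0.91, all below these bounds, and Treml4 and Ubxn11 were not called. With 2 arrays a group, no array could be tested as an outlier of its group.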

How the results depend on the processing

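Against 43 genes called in the difference, 6 were called with no filter on dim probes (6 of them among the 43), 22 with measured probes alone (21 among the 43) and 9 with the 8 arrays alone (6 among the 43). Leaving out 1 array gave 0 to 297 calls for the difference, 104 to 1377 for the EB change and 378 to 4757 for the ML change, and the EB count was 571 with no filter. The cause was not tested, beyond the fewer arrays or other genes that these settings use by construction. The replicate block gave 38 calls, 28 of them among the 43, and the clone numbers are not known to pair the arrays. Normexp background gave 43 calls, of which 21 were among the 43, quantile normalization 37, the authors' values 38, the mean of probes 44 and the trended prior 48. Quantile normalization moved the median ML change of all genes from -0.14 to -0.034. The direction of the 25 named called genes held in all settings that gave a value. The 82 named genes with an unadjusted p under 0.05 (limma) gave 1718 recomputed differences. These lost a call 262 times, gained one 33 times and changed sign 0 times. The choice of genes by p favours a stable sign. Genes with differences near 0 did change sign, among them T (-1.21 to 1.06 over the settings) and Eomes (-0.56 to 0.95). With arrays as few as 2 a group and 3238 genes 2-fold apart at ML day 3, differences of a few fold in genes of such spread could not be detected.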

Other observations

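Several further genes differed between formats in size without passing the threshold (limma, Benjamini-Hochberg adjusted). Asb4, an ankyrin repeat gene of vascular precursors, read 0.13 and 2.82 at EB day 3 and between -2.98 and -2.68 on the 6 other arrays, a difference of 4.07 ± 0.95 (adjusted p = 0.161). Cyp26a1, which degrades retinoic acid, rose by 5.67 in EBs and differed by 3.53 ± 0.96 (adjusted p = 0.22). The anterior Hox gene Hoxb3 differed by 3.20 ± 0.59 (adjusted p = 0.0841). Cdx2, a caudal homeobox gene of posterior mesoderm and trophoblast, differed by 2.48 ± 0.78 (adjusted p = 0.302). The imprinted neighbours H19 and Igf2 rose in EBs by 2.21 and 3.19, with differences of 1.98 and 2.02 (adjusted p = 0.307 and 0.553). Sema3e, a guidance ligand, rose in ML cultures by 1.78 and differed by -2.74 ± 0.64 (adjusted p = 0.162). With the 8 arrays alone, 6 of the 9 calls were among the 43. The other 3, Vwf, Cyp3a13 and 5830410O09Rik, each fell in ML cultures without an EB call. Cyp3a13 and 5830410O09Rik were not well above background on both arrays of either EB group, so their lack of an EB call says little.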
